A study of Mus musculus with 16 samples.

Results

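The fatty acid desaturases of the mouse are membrane enzymes that put double bonds into fatty acyl chains. The members described here are Scd1, Scd2, Fads1, Fads2 and Fads3, taken by gene symbol from a table of SuperSAGE tag counts, with the rows of a symbol summed; they are 5 of the 20826 symbols in that table. All 5 had at least 1 tag in the 16 livers, and 2 of them, Scd1 and Fads1, had enough tags to enter the fit across genes, in which 1046 genes were tested.

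The livers came from male C57BL/6J mice whose labels give an age of 4 weeks and 18 weeks of feeding, with 4 mice in each of 4 groups and a library from each mouse. HFW mice ate the high-fat diet (D12451) with 1% WEPAK, an extract that holds the water-soluble part of Pacific krill. HF mice ate that high-fat diet, labelled 45% fat, without the extract. NW mice ate the normal diet (D12450B) with 1% WEPAK, and N mice ate that normal diet, labelled 10% fat, without it. No group carried a genetic change. The extract is a mixture, and the labels do not give its composition or the fat content of the diets that contain it.

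As background, Scd1 is the main stearoyl-CoA desaturase of adult mouse liver: it turns saturated fatty acids into monounsaturated ones such as oleate, which are used for triglycerides, cholesteryl esters and membranes. Scd2 is a close relative with a part in the liver of newborn mice and in brain. Fads2 and Fads1 act in turn, with elongation between them, to make long polyunsaturated fatty acids such as arachidonic acid from dietary precursors: Fads2 carries out the first desaturation and Fads1 the last. Fads3 desaturates sphingoid bases. Scd1, Fads1 and Fads2 are known targets of the transcription factor SREBP-1c, the product of Srebf1, and dietary polyunsaturated fatty acids are known to lower all 3 in rodent liver.

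In SuperSAGE a transcript is read as a short tag that starts at the CATG site of the enzyme NlaIII nearest to its 3′ end. The tags predicted from the GENCODE vM21 transcripts (build GRCm38) paired with the table's RefSeq identifiers are given because the counts of the members rest on how well such tags tell these related genes apart; capitals mark the NlaIII site, and each tag is written on the gene's own strand.
Scd1: CATGaaaaccattgcaggaaaccttt
Scd2: CATGcaggactccgtttccttccttg
Fads1: CATGtctgtctttattaccttcatct
Fads2: CATGagccaagagagaccagttggta
Fads3: CATGgggaatgtgctctttccctcca
Each tag lay within the 3′ UTR in the last exon of its gene, and no transcript of another gene held any of the 5. Within its own gene, the tag was the last one of 1 of 3 Scd1, 1 of 2 Scd2, 2 of 8 Fads1, 1 of 3 Fads2 and 1 of 5 Fads3 transcripts. The other transcripts of each gene would give another tag or none. The tags of Scd1 and Scd2 differed at 15 of 26 positions and those of Fads1 and Fads2 at 19 of 26. The sources used here do not say which tag the authors counted for each transcript.

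The 5 genes lie on chromosome 19 in 2 clusters. Scd1 is on the minus strand (GRCm38 chr19:44394450-44407709, tag at 44394617 to 44394642 in exon 6 of 6), and 87586 bases separate it from Scd2 on the plus strand (chr19:44293676-44306864, tag at 44306701 to 44306726). Fads1 is on the plus strand (chr19:10182877-10196874, tag at 10196730 to 10196755 in exon 12 of 12), 81374 bases from Fads2 on the minus strand (chr19:10062765-10101503, tag at 10062874 to 10062899). Fads3, on the plus strand (chr19:10040855-10060113, tag at 10060053 to 10060078), ends 2652 bases from Fads2.

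Between 56655 and 149349 tags per library fell in named genes, so 1 tag was worth 6.70 to 17.7 CPM before normalisation. CPM is the unit used here for tags scaled to a common library size. For the CPM levels of livers and groups, the library sizes were also normalised between libraries. The HF libraries were the deepest, with a mean of 118882 ± 23746 tags, against 75749 ± 21588 in HFW, 74198 ± 30660 in NW and 75963 ± 16768 in N (SD, n = 4 each). All 7 hepatocyte markers had tags, but very unevenly. Over the 16 libraries Alb had 7111 tags, while Apoa1 had 65, Cyp3a11 46 and Tat 26. Of the 7 adipocyte markers 6 (Adipoq, Plin1, Cfd, Lep, Fabp4, Retn) were at 0 tags in every library, and the other, Cidec, had 15 tags in all. All values are of whole liver, in which fewer cells of a type and less RNA per cell cannot be told apart.

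Scd1 and Fads1 made up nearly all desaturase tags. Over the 16 libraries Scd1 had 8749 tags, Fads1 2890, Fads2 117, and Fads3 and Scd2 4 each. By mean CPM, Scd1 ranked 16 and Fads1 ranked 74 among the 10171 symbols with a tag, while Fads2 ranked 1172. A transcript gives 1 tag whatever its length, so these CPM levels need no scaling by length, but how completely each tag was recovered was not tested. The ranks thus compare tag counts between genes, not transcript levels. Together the 5 members held a mean of 0.740% of the tags in HFW, 0.639% in HF, 0.995% in NW and 1.13% in N.

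The high-fat diet was accompanied by less Scd1. Averaged over the extract-fed and the extract-free mice, Scd1 on the high-fat diet stood at 0.514 of its level on the normal diet. It was lower in 7 of 8 high-fat mice than the mean of their normal-diet group. By edgeR the difference passed in the mean of both high-fat contrasts, but not in every alternative. It missed the threshold between HF and N and between HFW and NW.

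In single livers Scd1 had 9328, 4316, 5869 and 3701 CPM in HFW mice 34, 36, 38 and 40, and 2569, 4424, 3489 and 3798 CPM in HF mice 23, 25, 28 and 29. It had 8531, 5650, 12433 and 10377 CPM in NW mice 11, 12, 15 and 20, and 8464, 11404, 8007 and 6113 CPM in N mice 4, 5, 7 and 8. The HF livers were all below the N livers, whereas HFW mice 34 and 38 reached into the NW range.

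**Figure D1:**
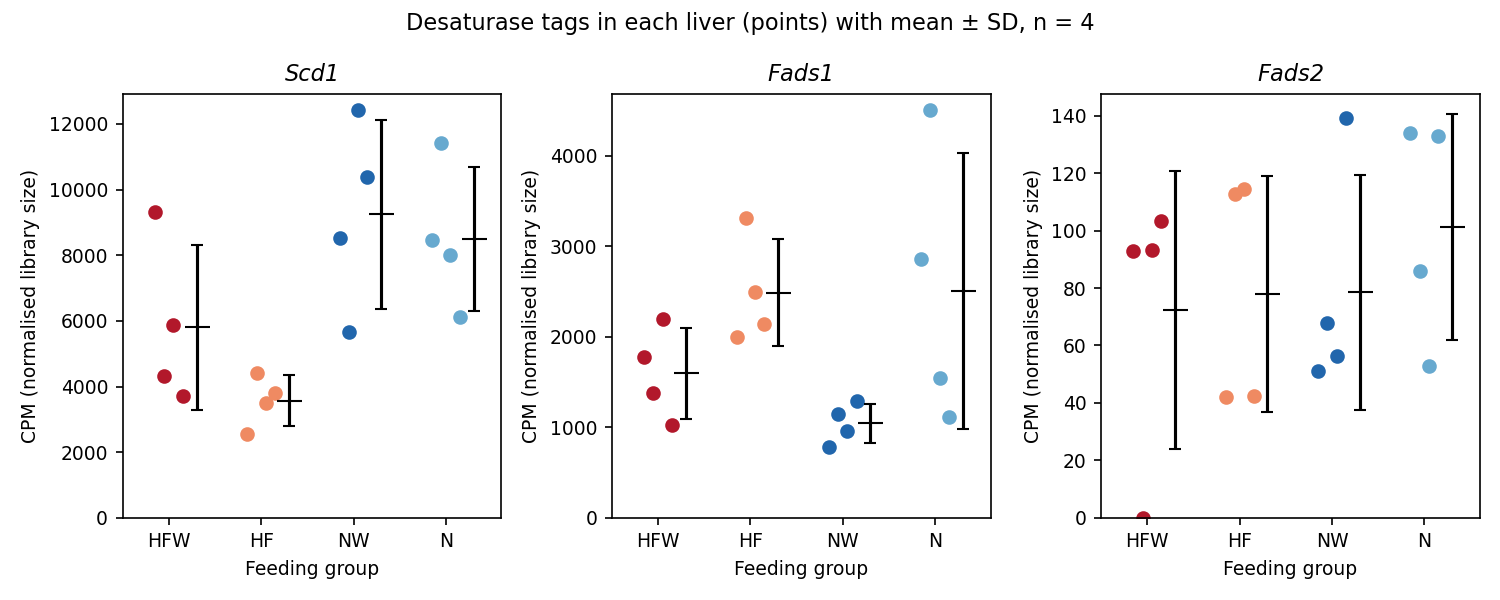
CPM of Scd1, Fads1 and Fads2 (vertical axes, each from 0) in the livers of the HFW, HF, NW and N groups; points are mice, and lines are the group mean ± SD (n = 4). The Scd1 points of HF sit between 2569 and 4424 CPM, below all N points, and the Fads1 points of NW sit between 785 and 1286 CPM.

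The mean Scd1 level was 5804 ± 2520 CPM in HFW, 3570 ± 773 in HF, 9248 ± 2880 in NW and 8497 ± 2189 in N (SD, n = 4 each), so the order of the levels from the highest was NW, N, HFW and HF. The HF to N comparison shares its N libraries with NW minus N and its HF libraries with HFW minus HF. In that order NW and N overlapped and did not differ beyond their spread, HFW (3701 to 9328 CPM) overlapped N (6113 to 11404 CPM), and HF overlapped HFW.

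Of the 2 tested members 1, Scd1, passed in the mean of both high-fat contrasts, where 0.574% of all tested genes were called and 0.287% were called lower. Its log2 fold change was -0.96 (SE 0.21, 95% interval -1.38 to -0.54, adjusted p = 0.0292 by the edgeR quasi-likelihood test). An exact permutation of the diet labels within each extract state gave a two-sided p of 0.00286. The call was lost by edgeR without N mouse 5 (-0.86, adjusted p = 0.0632), N mouse 7 (-0.97, 0.0553), NW mouse 11 (-0.96, 0.0592), NW mouse 15 (-0.86, 0.0564) or HF mouse 23 (-0.89, 0.0614), and with only genes of at least 20 tags a library on average (-0.97, 0.0527). With all libraries thinned to 56655 tags it was -0.94 (adjusted p = 0.0278 by edgeR).

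Between HF and N alone, the Scd1 log2 fold change was -1.25 (SE 0.30, 95% interval -1.85 to -0.65, lower in 4 of 4 mice) and missed the threshold in edgeR (adjusted p = 0.0925). In this comparison edgeR called 0 of 2 members and 0.0956% of tested genes. Scd1 had an unadjusted p under 0.05, as did 9.85% of tested genes, and was called by DESeq2, as were 0.191%, while limma-voom called 0 members and 0.00% of genes. By edgeR it passed without N mouse 4 (-1.25, adjusted p = 0.0202) or when HFW mouse 34 was left out (-1.21, adjusted p = 0.0476). The exact permutation test gave p = 0.0286, the smallest that 70 arrangements of 4 against 4 allow. The groups did not overlap for Scd1, which was so for 3.06% of tested genes.

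Between HFW and NW, the Scd1 log2 fold change was -0.67 (SE 0.29, 95% interval -1.27 to -0.07, adjusted p = 0.360 by edgeR, lower in 3 of 4 mice). By edgeR 0 of 2 members passed there, as did 0.00% of tested genes. Scd1 had an unadjusted p under 0.05, as did 12.0% of tested genes, and DESeq2 and limma-voom called 0 members and 0.00% of genes.

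Markers of other cells were set beside this difference. The summed hepatocyte markers ran from 4825 to 7055 CPM in HFW, 3374 to 6053 in HF, 5389 to 8777 in NW and 4701 to 7525 in N. Alb had the most tags of that list. The summed stellate cell markers, of which 6 had tags, ran from 716 to 3446 CPM in HFW and 411 to 3120 in HF, against 324 to 880 in NW and 432 to 774 in N. The part of either list in the Scd1 difference was not tested.

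WEPAK was accompanied by less Fads1 in the mean over both diets. Averaged over the diets, Fads1 in extract-fed mice stood at 0.515 of its level without the extract, and it was lower in 8 of 8 extract-fed mice than the mean of the extract-free mice on the same diet. The difference passed between NW and N and missed the threshold between HFW and HF.

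In single livers Fads1 had 1775, 1380, 2198 and 1024 CPM in HFW mice 34, 36, 38 and 40, and 2000, 3317, 2498 and 2136 CPM in HF mice 23, 25, 28 and 29. It had 785, 1147, 955 and 1286 CPM in NW mice 11, 12, 15 and 20, and 2856, 4501, 1548 and 1113 CPM in N mice 4, 5, 7 and 8. HFW mouse 38 lay inside the HF range and N mouse 8 inside the NW range, so neither pair of groups was fully apart, and N was the most spread of the groups.

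The mean Fads1 level was 1595 ± 506 CPM in HFW, 2488 ± 591 in HF, 1043 ± 219 in NW and 2505 ± 1523 in N (SD, n = 4 each), so the order of the levels from the highest was N, HF, HFW and NW. HF and N differed by a log2 fold change of -0.02 (HF minus N, SE 0.32, 95% interval -0.67 to 0.64), and neither HFW and HF nor HFW and NW passed the test.

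In the mean of both WEPAK contrasts 1 of the 2 tested members passed, Fads1, with a log2 fold change of -0.96 (SE 0.23, 95% interval -1.43 to -0.48, adjusted p = 0.00302 by the edgeR quasi-likelihood test). The background of calls was high: 31.3% of all tested genes passed in this contrast, and 16.1% of all tested genes were called lower. The exact permutation within diets gave a two-sided p of 0.00490 for Fads1. Fads1 passed under all 25 alternatives that could give the contrast, with log2 fold changes of -1.13 to -0.74.

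Between NW and N, Fads1 fell by 1.27 on the log2 scale (SE 0.33, 95% interval -1.95 to -0.59, adjusted p = 0.0144 by edgeR, lower in 4 of 4 mice). In this contrast 11.0% of tested genes were called and 7.36% were called lower. The exact permutation test gave p = 0.0857. By edgeR the call was lost without N mouse 4 (-1.21, adjusted p = 0.0566), N mouse 5 (-0.81, 0.113), NW mouse 11 (-1.16, 0.0520) or NW mouse 15 (-1.22, 0.0541).

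Between HFW and HF, the Fads1 log2 fold change was -0.65 (SE 0.32, 95% interval -1.31 to 0.01, adjusted p = 0.185 by edgeR, lower in 4 of 4 mice; exact permutation p = 0.0857). In this contrast edgeR called 0 of 2 members and 9.85% of tested genes. At an unadjusted p under 0.05 there were 1 member, Scd1, and 28.6% of genes; DESeq2 called 0 members and 10.4% of genes, and limma-voom 0 members and 9.94%. The difference between the Fads1 changes on the high-fat and the normal diet was 0.62 on the log2 scale (SE 0.46, 95% interval -0.33 to 1.56, adjusted p = 0.998 by edgeR), so a difference between the diets was not detected. In that interaction 0.00% of tested genes were called by edgeR, 2.49% had an unadjusted p under 0.05, and DESeq2 and limma-voom called 0.00%.

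Scd1 missed the threshold in each WEPAK contrast. Its log2 fold change with WEPAK was 0.70 between HFW and HF (SE 0.29, 95% interval 0.10 to 1.30, adjusted p = 0.117 by edgeR), with all 4 HFW mice above the HF mean. Without HFW mouse 34 it was 0.35. Between NW and N it was 0.12 (SE 0.29, 95% interval -0.47 to 0.71, adjusted p = 0.836 by edgeR). The mean of both was 0.41 (SE 0.21, 95% interval -0.01 to 0.83, adjusted p = 0.127 by edgeR, higher in 7 of 8 mice), and the interaction was 0.58 (SE 0.41, 95% interval -0.26 to 1.42, adjusted p = 0.998 by edgeR).

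Fads1 had no detected difference with diet in the mean of both high-fat contrasts (0.29, SE 0.23, 95% interval -0.18 to 0.77, adjusted p = 0.498 by edgeR). Its log2 fold change was 0.60 between HFW and NW (SE 0.33, 95% interval -0.08 to 1.28, adjusted p = 0.453 by edgeR).

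**Figure D2:**
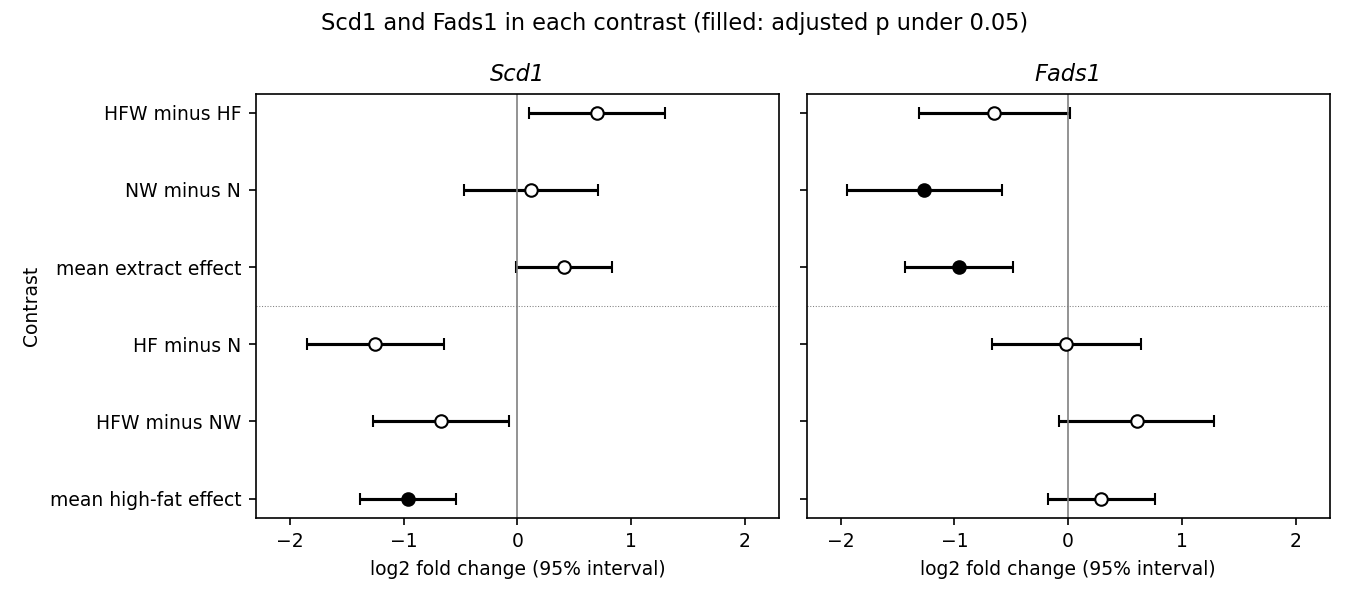
Log2 fold changes of Scd1 (left) and Fads1 (right) in each contrast, from the edgeR fit of all 16 libraries; bars are 95% intervals and filled points have an adjusted p under 0.05. Scd1 passed in the mean high-fat contrast (-0.96), and Fads1 passed in NW minus N (-1.27) and in the mean WEPAK contrast (-0.96).

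The Kupffer cell markers, of which all 6 in the table had tags, summed to 69.9 to 225 CPM in HFW and 84.8 to 313 CPM in HF, and to 102 to 187 CPM in NW and 185 to 332 CPM in N. The endothelial markers, of which 6 of 6 had tags, summed to 601 to 716 CPM in HFW and 737 to 945 CPM in HF, and to 392 to 680 CPM in NW and 432 to 833 CPM in N. Both sums were thus lower in the extract-fed mice by their medians, but the genes within each list did not all go that way. In HFW, HF, NW and N, Oit3 had 110, 303, 100 and 143 tags and Vsig4 had 11, 51, 3 and 26. In the same order Kdr had 72, 88, 58 and 59 tags and Csf1r had 31, 36, 29 and 40, with the HF libraries the deepest. Between HFW and HF the log2 fold change of Kdr was 0.43 (adjusted p = 0.332 by edgeR). The part of either list in the Fads1 difference was not tested.

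The balance of the 2 abundant desaturases can be read within each library, since the ratio of their tags does not depend on scaling. There were 5.25, 3.13, 2.67 and 3.61 Scd1 tags per Fads1 tag in HFW mice 34, 36, 38 and 40, and 1.28, 1.33, 1.40 and 1.78 in HF mice 23, 25, 28 and 29. There were 10.9, 4.93, 13.0 and 8.07 in NW mice 11, 12, 15 and 20, and 2.96, 2.53, 5.17 and 5.49 in N mice 4, 5, 7 and 8. HF stood below every other liver, and the upper end of N reached into NW.

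The mean ratio was 3.67 ± 1.13 in HFW and 1.45 ± 0.225 in HF, and 9.22 ± 3.51 in NW and 4.04 ± 1.51 in N (SD, n = 4 each). The ratio is given as a description, with no test. It shows that the shares of the 2 genes differed between groups, not which of them moved.

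**Figure D3:**
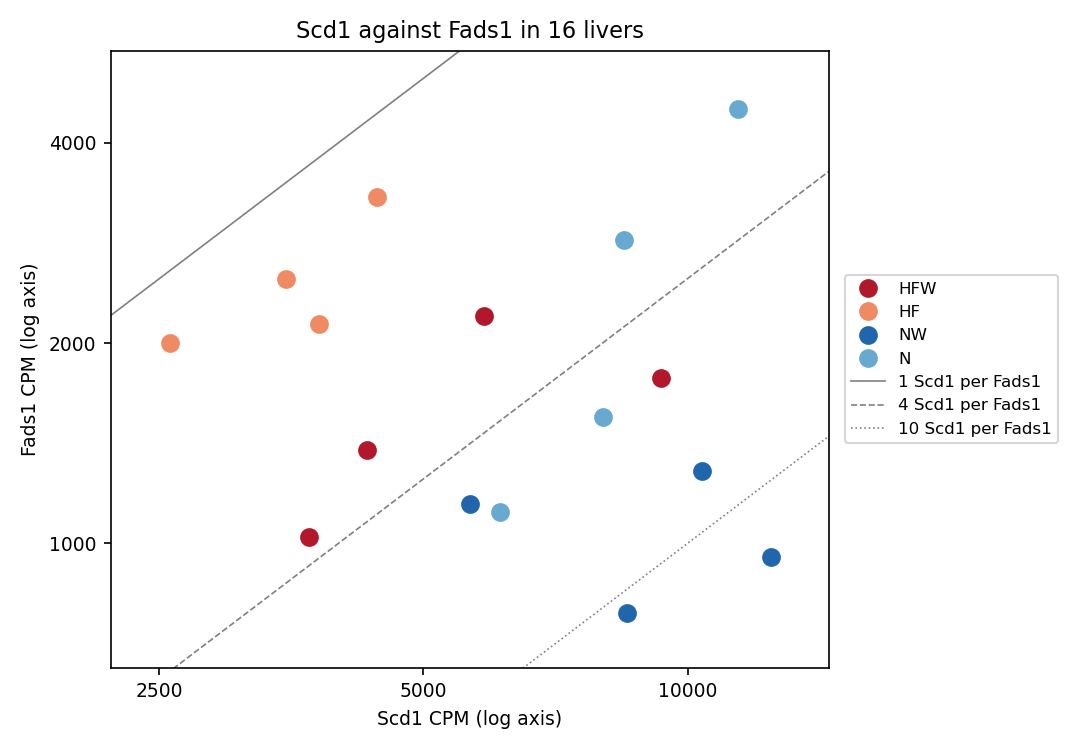
Fads1 CPM (vertical, log axis) against Scd1 CPM (horizontal, log axis); points are the 16 livers, coloured by group, and lines mark 1, 4 and 10 Scd1 tags per Fads1 tag. The 4 HF livers lie between the solid and the dashed line, at 1.28 to 1.78, and the NW livers lie at 4.93 to 13.0.

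Fads2, the enzyme of the first desaturation, was too low for the fit across genes. It had 92.8, 0, 93.2 and 103 CPM in HFW mice 34, 36, 38 and 40, and 42.1, 113, 115 and 42.4 CPM in HF mice 23, 25, 28 and 29. It had 51.2, 68.0, 56.2 and 139 CPM in NW mice 11, 12, 15 and 20, and 134, 85.8, 52.9 and 133 CPM in N mice 4, 5, 7 and 8. All groups overlapped.

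The Fads2 values rest on 24 tags in HFW, 41 in HF, 22 in NW and 30 in N. The exact permutation tests gave p = 0.743 for HFW against HF, 0.457 for NW against N, 0.400 for HF against N and 0.83 for HFW against NW. In an edgeR fit with no filter on low counts, over 10171 genes, the log2 fold change of Fads2 was -0.32 in the mean of both WEPAK contrasts (SE 0.35, 95% interval -1.01 to 0.37) and -0.04 in the mean of both high-fat contrasts (SE 0.36, 95% interval -0.75 to 0.66). In that same fit Fads1 had -1.11 in the mean of both WEPAK contrasts (SE 0.19, 95% interval -1.48 to -0.73); the difference between the 2 genes was not tested.

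Scd2 and Fads3 were barely detected. Scd2 had 0 tags in HFW and 2 in HF, and 0 in NW and 2 in N. Fads3 had 2 tags in HFW and 1 in HF, and 0 in NW and 1 in N. A count of 0 allows up to 3 tags in a group, or 9.90 CPM in HFW and 10.1 CPM in NW before normalisation, and no difference was detectable at this depth.

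Of the related genes that are not among the 5 members, Fads6, a desaturase-like gene whose substrate is not established, had 818 tags in all. Its mean was 730 ± 178 CPM in HFW and 484 ± 127 CPM in HF, and 673 ± 192 CPM in NW and 518 ± 110 CPM in N (SD, n = 4 each). The mean WEPAK log2 fold change of Fads6 was 0.47 (SE 0.20, adjusted p = 0.0666 by edgeR), which missed the threshold. Degs1, a desaturase of ceramide synthesis, had 21 tags in all and Degs2 had 3. Scd3 and Scd4, close relatives of Scd1 and Scd2, had 6 and 0 tags.

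Genes around the desaturases were read from 6 lists: electron supply, fatty acid synthesis, elongation, acyl-CoA activation, regulators, and use of the products. Of 74 gene symbols listed 69 were in the table and 19 were tested. The elongation list, with 13 of 17 symbols in the table, held some genes under both an older and a newer symbol. In the mean of both WEPAK contrasts edgeR called 2 of these 19 higher and 1 lower, where 31.3% of all tested genes were called, 15.2% higher and 16.1% lower. An unadjusted p under 0.05 was found for 5 of the 19, DESeq2 called 3 and limma-voom 5, where the shares of all tested genes were 42.5% unadjusted, 29.9% by DESeq2 and 30.8% by limma-voom. Their median log2 fold change was 0.11, beside 0.03 over all tested genes. In the mean of both high-fat contrasts 0 of 19 passed by edgeR, 3 had an unadjusted p under 0.05 (Acot2, Dgat2 and Slc27a2), and DESeq2 and limma-voom called 0; of all tested genes 20.6% had an unadjusted p under 0.05, and 1.63% and 0.478% were called by DESeq2 and limma-voom. The median was 0.02, beside 0.01 over all tested genes.

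Acly and Thrsp were the called genes among 5 tested genes of fatty acid synthesis in the mean WEPAK contrast, where 31.3% of all tested genes were called. Acly, which makes the cytosolic acetyl-CoA that fatty acids are built from, had 195 ± 89.7 CPM in HFW and 341 ± 97.2 CPM in HF, and 111 ± 19.7 CPM in NW and 355 ± 195 CPM in N (SD, n = 4 each). Its mean WEPAK log2 fold change was -1.22 (SE 0.27, adjusted p = 0.00113 by edgeR, lower in 8 of 8 mice). Acly also passed between NW and N (-1.70, SE 0.40, adjusted p = 0.00783 by edgeR), where the groups did not overlap, as was so for 15.5% of tested genes. Between HFW and HF it missed the threshold (-0.74, SE 0.35, adjusted p = 0.161 by edgeR), and those groups overlapped.

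Thrsp, a nuclear protein tied to lipogenesis, moved the other way with WEPAK. It had 1376 ± 572 CPM in HFW and 513 ± 137 CPM in HF, and 1961 ± 1477 CPM in NW and 699 ± 409 CPM in N (SD, n = 4 each). Its mean WEPAK log2 fold change was 1.46 (SE 0.37, adjusted p = 0.00809 by edgeR, higher in 7 of 8 mice). Fasn, the fatty acid synthase itself, had 0.21 in the same contrast (SE 0.30, adjusted p = 0.640 by edgeR), Acacb 0.50 (adjusted p = 0.354) and Pklr -0.30 (adjusted p = 0.498).

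Among 5 tested genes that use the products, Dgat2, which completes triglycerides, was called in the mean WEPAK contrast, as were 31.3% of all tested genes. It had 16812 ± 3151 CPM in HFW and 10273 ± 3133 CPM in HF, and 23502 ± 5663 CPM in NW and 15121 ± 7295 CPM in N (SD, n = 4 each). Its mean WEPAK log2 fold change was 0.67 (SE 0.21, adjusted p = 0.0146 by edgeR, higher in 8 of 8 mice), and the call was lost with no filter on low counts (0.54, adjusted p = 0.0544). In the mean of both high-fat contrasts Dgat2 had -0.52 (SE 0.21, adjusted p = 0.170 by edgeR) and was lower in 8 of 8 mice; without N mouse 4 it passed (-0.63, adjusted p = 0.0342). Soat2, which esterifies cholesterol with fatty acids, had 0.44 with WEPAK (adjusted p = 0.122 by edgeR), Agpat3 0.33 (adjusted p = 0.257) and Lpcat3, which puts polyunsaturated chains into phospholipids, 0.05 (adjusted p = 0.871).

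None of the 3 tested regulators passed by edgeR in the mean of both WEPAK contrasts. An unadjusted p under 0.05 was found for 1, Scap, while DESeq2 called 0 and limma-voom 1. Of all tested genes 31.3% passed by edgeR there, 42.5% had an unadjusted p under 0.05, and DESeq2 and limma-voom called 29.9% and 30.8%. Srebf1 had -0.71 (SE 0.34, adjusted p = 0.121 by edgeR), Scap, the escort of the SREBP proteins, -0.37 (adjusted p = 0.116) and Rxra, a nuclear receptor, -0.13 (adjusted p = 0.625). Between NW and N, Srebf1 had -1.26 (SE 0.49, adjusted p = 0.101 by edgeR) and was called by DESeq2, as were 11.2% of tested genes. It had 813 ± 779 CPM in NW and 1919 ± 967 CPM in N (SD, n = 4 each). The NW values ran from 412 to 1982 CPM, and 3 of 4 NW mice were below the N mean.

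Of 4 tested genes of activation 0 passed by edgeR in either mean contrast, with 1 (WEPAK) and 2 (high fat) at an unadjusted p under 0.05, 0 by DESeq2, and 1 (WEPAK) and 0 (high fat) by limma-voom. The shares of all tested genes with WEPAK were 31.3% by edgeR, 42.5% unadjusted, 29.9% by DESeq2 and 30.8% by limma-voom. With high fat they were 0.574%, 20.6%, 1.63% and 0.478%. With WEPAK, Slc27a5, an acyl-CoA synthetase of the liver, had 0.42 (adjusted p = 0.0784 by edgeR) and Acot2, a mitochondrial thioesterase, -0.45 (adjusted p = 0.262). On the high-fat diet Slc27a2, a very long chain acyl-CoA synthetase, had -0.39 (adjusted p = 0.200 by edgeR) and was lower in 8 of 8 mice. Cyb5b, the tested gene of electron supply, had 0.31 with WEPAK (adjusted p = 0.419 by edgeR) and Ptplad1, the tested gene of elongation, 0.11 (adjusted p = 0.805). Of the 6 symbols listed for electron supply 5 were found, and Cyb5a was not.

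**Figure D4:**
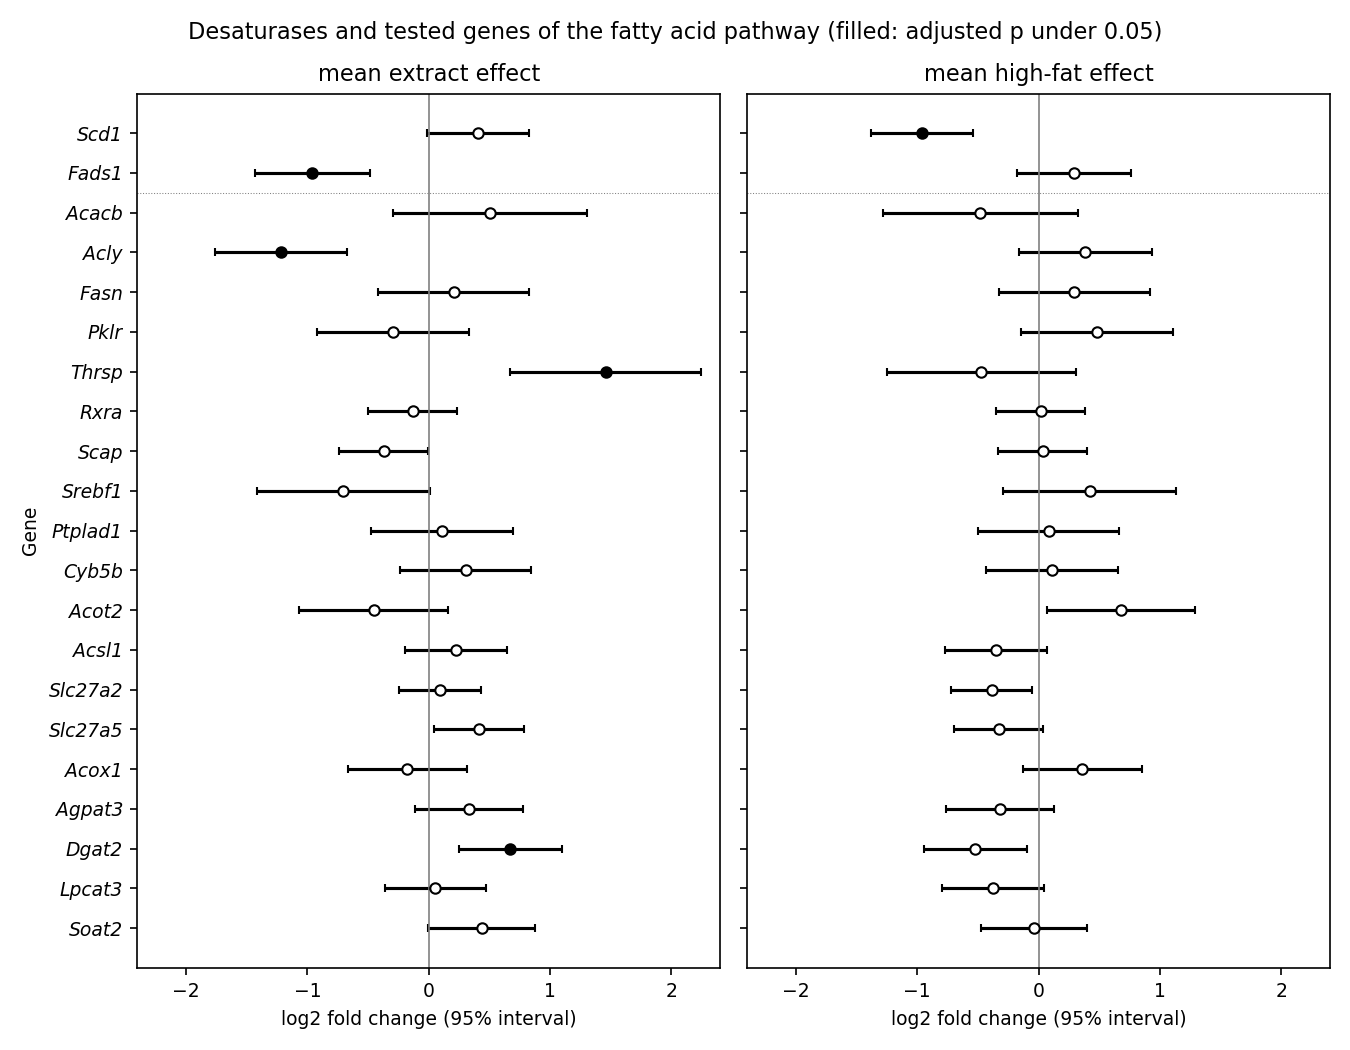
Log2 fold changes with 95% intervals in the mean WEPAK contrast (left, titled mean extract effect) and the mean high-fat contrast (right) for Scd1, Fads1 and the 19 tested genes of the 6 lists, from the edgeR fit; filled points have an adjusted p under 0.05. With WEPAK Fads1 and Acly lie below 0 and Thrsp and Dgat2 above it; with high fat Scd1 (-0.96) is the filled point.

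The tested genes whose log2 CPM over the 16 libraries was most like that of Scd1 were Nceh1 (Pearson's r = 0.74), Aspg (0.72), Slc2a1 (0.69), Tap2 (0.65) and Agxt (0.64). For Fads1 they included Tex2 (r = 0.83), Smpd1 (0.81), Lrpprc (0.80) and E130309D02Rik (0.80). No gene was on both lists. The points share the libraries, their depth and their diets, and the values are descriptions.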

How the data were processed

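Total liver RNA was made into SuperSAGE libraries: per the labels' protocols, cDNA primed with oligo-dT was cut with NlaIII, and tags were released with EcoP15I, indexed and PCR-amplified. The deposited values are raw tag counts, by RefSeq transcript and mouse, per the file headers; the sources used here do not give the matching of tags to transcripts or the treatment of shared tags. No molecular identifiers are named, so floors and limits from counts cover counting error only. The labels give no batch. Each library is from a separate mouse.

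Of 26782 rows, 417 without a usable symbol (0.0729% of tags) were left out, 40 of 41 symbols turned into dates were restored, and counts were summed per symbol. Library pairs within a group differed beyond sampling noise (chi-square over its degrees of freedom, 2.24 to 9.64). Counts were fitted in R 4.3.3 with edgeR 4.0.16 (TMM scaling, filterByExpr by group with a minimum count of 10, robust quasi-likelihood fit of all 16 libraries, a mean per group), with Benjamini-Hochberg adjustment over 1046 genes at 0.05. The approximate standard errors divide the log2 fold change by the root of F. Exact permutation tests used log2 CPM with a prior count of 2. The mean contrasts average HFW minus HF with NW minus N, or HF minus N with HFW minus NW. Alternatives included DESeq2 1.42.0 and limma-voom (limma 3.58.1). The fit was tested on simulated data.

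The members and the lists were chosen with earlier results of these data known. The named genes were all members, 5 relatives, each list gene that passed in any contrast and up to 4 of each list with the smallest p, and the 5 tested genes most like each tested member; not all of these are reported here.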

Additional observations from a re-analysis of the deposited data

Results flagged for a closer look

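Fads2 was at 0 CPM in the liver of HFW mouse 36, while the other HFW livers had 92.8 to 103 CPM. The gap to the nearest of them was 0.898 of the range of the group, above the 95% critical value of Dixon's test for 4 samples. A count of 0 in that library allows up to 50.7 CPM before normalisation. Of 16 groups examined, 4 genes in 4 groups each, this was the one beyond that value, and chance alone puts about 5% of groups beyond it.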

How the results depend on the processing

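No paired analysis was possible because the mouse numbers in the labels all differ. Fits of the compared groups alone cannot give the mean contrasts or the interaction. The count of members called ran from 0 to 1 when a mouse was left out, against 1 for NW minus N, 0 for HF minus N and 1 for the mean of both high-fat contrasts. It was 1 (Scd1, adjusted p = 0.0365) with the DESeq2 Wald test for HF minus N and 0 with the filter at a mean of 20 tags for the mean of both high-fat contrasts. No log2 fold change of a called member changed its sign. Leaving out N mice 4 and 8 together was an alternative taken from earlier work on these data, so its values are no independent support. With it edgeR gave Fads1 -1.13 in the mean WEPAK contrast (adjusted p = 0.000382) and -1.57 between NW and N (adjusted p = 0.00911). Scd1 had -1.03 in the mean high-fat contrast (adjusted p = 0.00665 by edgeR). N mouse 8 was the N liver inside the NW range of Fads1. Without N mouse 4 alone, the Fads1 call between NW and N was lost.

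Counts over all genes moved by more than 1.5 times in these alternatives. HFW minus HF, 103 genes, had 156 without N mice 4 and 8 and 40 to 65 without HF mouse 23, HF mouse 25, HFW mouse 38 or HFW mouse 40. NW minus N, 115 genes, had 70 with no filter, 38 without N mice 4 and 8, 31 without N mouse 4, 47 without NW mouse 15 and 178 without N mouse 8. HF minus N, 1 gene, had 31 without N mouse 4 and otherwise 0 to 2. HFW minus NW, 0 genes, had 3 from the compared groups alone and 3 without NW mouse 20. The mean WEPAK contrast, 327 genes, had 204 with the 20-tag filter. The mean high-fat contrast, 6 genes, had 30 with no filter, 0 with the 20-tag filter, 17 by DESeq2, 55 without N mice 4 and 8, and 0 to 107 with a mouse left out.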

Other observations

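Across the 16 livers the levels of Scd1 and Fads1 had no detected relation in log2 CPM (Pearson's r = -0.11, permutation p = 0.695; Spearman's rho = -0.16, permutation p = 0.544; adjusted over 3 pairs of members 0.695 and 0.544). Without HF mouse 23 and NW mouse 15, the livers farthest from the median of Scd1, r was 0.06. The permutations here ran over all 16 livers and ignored the feeding groups, so their p-values do not address a relation within groups. As a description with no p, the deviations of Scd1 and Fads1 from their group means had r = 0.57. Scd1 with Fads2 gave r = 0.25 and rho = 0.20 (permutation p = 0.376 and 0.451, adjusted 0.623 and 0.544), and 0.24 without the same livers. Fads1 with Fads2 gave r = 0.22 and rho = 0.20 (permutation p = 0.415 and 0.456, adjusted 0.623 and 0.544), and 0.18 without N mouse 5 and NW mouse 11.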
